A study of Nothobranchius furzeri with 185 samples.

Results

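Fibrillar collagen chains were followed through skin, tail-fin clips, liver and brain of the turquoise killifish Nothobranchius furzeri, a fish with a very short natural lifespan. The members were all loci of the count table whose zebrafish-derived symbol was col1a1a, col1a1b, col1a2, col2a1a, col5a1, col5a3b or col11a1b, ignoring case and a trailing copy number. This gave 8 loci with 7 symbols out of 23564 loci, because col2a1a named a pair of loci. The members were chosen with earlier results of these data known, so the shares of all loci given beside their counts are no independent yardstick. Fibrillar collagens are long triple helices that assemble into the banded fibrils of skin, bone, fin rays, tendon and cartilage. Type I collagen is the bulk material of skin and bone fibrils, type II is the main collagen of cartilage, and types V and XI are minor chains that start fibrils and limit their width. The chains are hydroxylated and folded in the endoplasmic reticulum, exported, trimmed of their end pieces outside the cell and cross-linked by lysyl oxidases.

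RNA was sequenced in bulk from 185 libraries. Untreated fish gave skin and liver at 5, 12, 20, 27 and 39 weeks of age, with 5 libraries per tissue and age. A treatment arm gave brain, liver and skin of fish kept for 4 weeks in the solvent DMSO and sampled at 9 weeks, in DMSO and sampled at 27 weeks, or in 15 pM rotenone in DMSO and sampled at 27 weeks, with 5 libraries per tissue and group. Rotenone is an inhibitor of complex I of the mitochondrial respiratory chain. Fin clips came from 45 fish, each clipped at 10 and at 20 weeks of age and put into 3 lifespan groups of 15 by age at death, namely 28.7 to 36.4 weeks (group 1), 45.1 to 50.3 weeks (group 2) and 57.3 to 71.9 weeks (group 3). The 3 tissues of the treatment arm came from the same fish, and some untreated fish gave both skin and liver. No strain or sex was given in the labels used here.

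Depth ran from 14970721 to 54947376 counted reads per library, so the abundant chains were limited by the spread between fish and the rarest by read number. The 39-week skins had scaling factors of 0.777 to 0.930, against 0.963 to 1.093 at 5 weeks. Single libraries stood apart in marker genes of other cell types. Skin of fish JM109 at 12 weeks had a summed hepatocyte marker level of 24052 CPM (counts scaled to library size) against 375 to 616 in the other 4 skins, skin of the rotenone fish MR30 had a testis germ cell level of 2062 against 4.72 to 8.23, and skin of the 27-week vehicle fish MC7 one of 1007 against 7.84 to 18.3. Fin libraries fell into 2 batches named in the labels, with 60 and 30 libraries.

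Type I chains were among the most abundant transcripts of young skin and were rare in liver and brain. Levels between genes are given as deposited RPKM, reads scaled to gene length and library size. In 9-week vehicle skin col1a1b, the second alpha1-type chain of teleost type I collagen (also called alpha3(I) in zebrafish), had a mean level of 7594 ± 746 RPKM (SD, n = 5) and a median rank of 4 among all loci. The level of col1a1a, the alpha1(I) chain, was 5970 ± 579 RPKM, and that of col1a2, the alpha2(I) chain, was 4318 ± 446 RPKM. The minor chains lay far below, with col5a1, the alpha1(V) chain, at 230 ± 12.8 RPKM and col11a1b, an alpha1(XI) chain, at 76.1 ± 12.7 RPKM. Next came the col2a1a locus Nfu_g_1_021016, an alpha1(II) chain, at 12.4 ± 3.81 RPKM, and then col5a3b, an alpha3(V) chain, at 0.650 ± 0.219 RPKM. The 7 levels fell in this order without overlap between neighbours except col1a1b and col1a1a, whose ranges met.

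**Figure D1:**
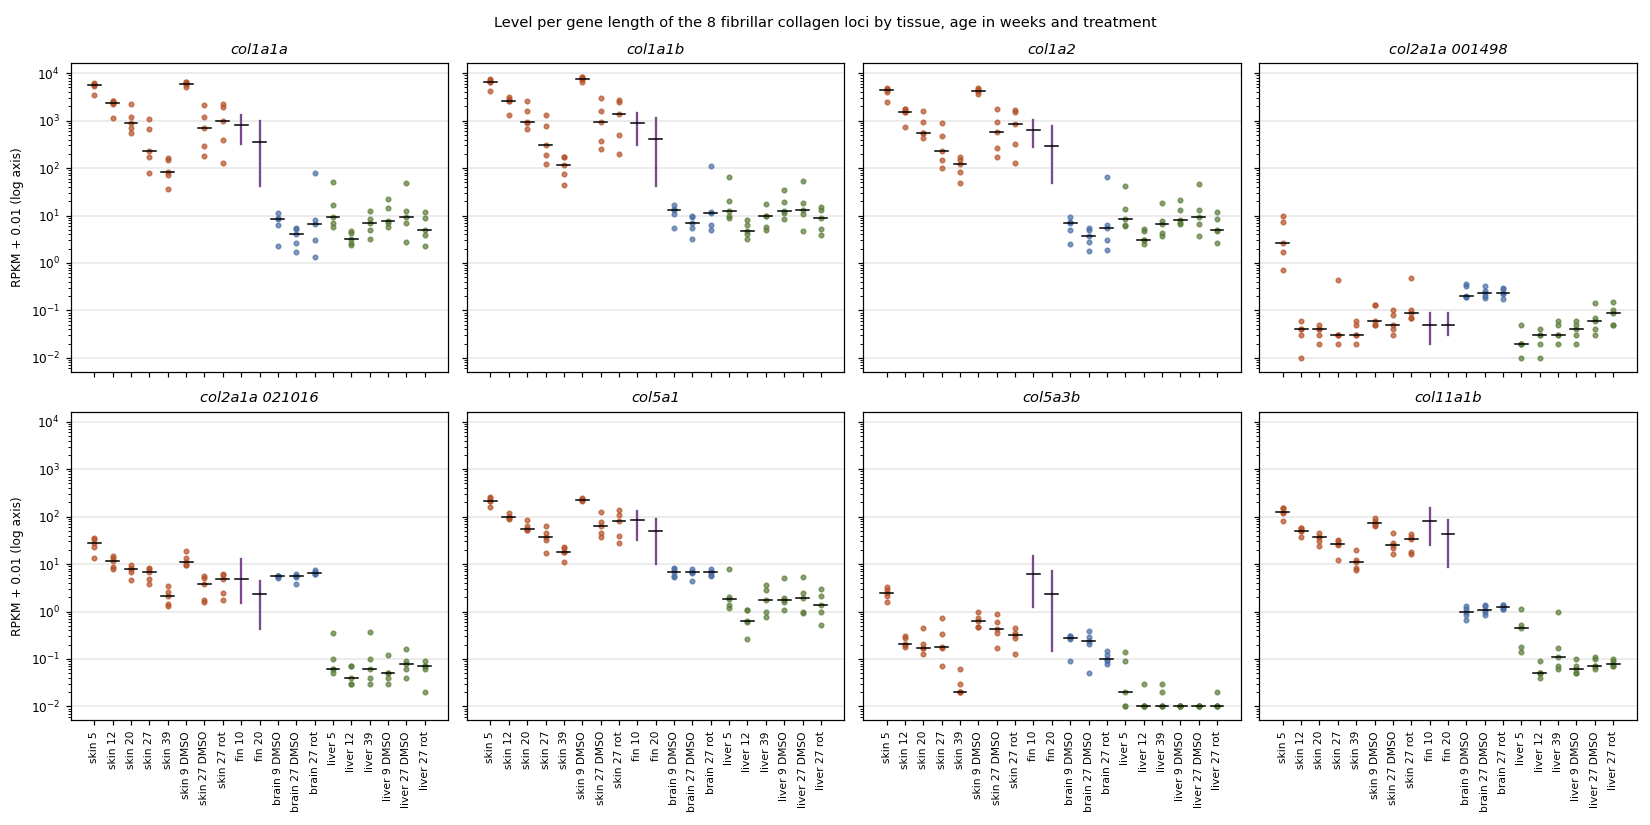
Deposited RPKM plus 0.01 (log axis) of each collagen locus, a panel each, by tissue, age in weeks and treatment; points are the 5 libraries of a group, vertical lines the range over 45 fins, and black bars medians. Skin and fin hold the high type I levels, and col1a1a in untreated skin steps down from a mean of 5335 RPKM at 5 weeks to 101 at 39 weeks.

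Across tissues the order of levels differed by chain. For col1a1a the mean level was 5970 ± 579 RPKM in 9-week vehicle skin, 814 ± 249 RPKM (n = 45) in 10-week fins, 11.3 ± 6.86 RPKM in 9-week liver and 7.48 ± 3.37 RPKM in 9-week brain. Skin lay above fin and fin above both inner tissues without overlap, while liver, at 5.65 to 22.1 RPKM, and brain, at 2.28 to 11.3 RPKM, overlapped. For col5a3b the order was turned at the top: the level was 6.28 ± 2.76 RPKM in 10-week fins and 0.650 ± 0.219 RPKM in 9-week skin, and the lowest fin stood at 1.21 RPKM against 0.98 RPKM in the highest of these skins. Fin and skin came from different fish and experiments, and that difference was not tested. For the col2a1a locus Nfu_g_1_021016 the level in 9-week brain was 5.49 ± 0.178 RPKM, beside 5.46 ± 2.31 RPKM in 10-week fins, and the 5 brains lay within 5.19 to 5.65 RPKM.

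In the 9-week vehicle fish, where all 3 tissues could be tested in one fit, 7 of 8 loci were higher in skin than in brain by edgeR's quasi-likelihood test at a Benjamini-Hochberg adjusted p under 0.05, against 33.8% of all loci. The log2 fold changes ran from 1.91 ± 0.36 (SE) for col2a1a Nfu_g_1_021016 to 10.36 ± 1.13 for col1a1a. Against liver, 7 of 8 loci were higher in skin (30.9% of all loci), with log2 fold changes of 8.30 ± 1.04 for col1a1a, 9.63 ± 0.38 for col11a1b and 5.91 ± 0.48 for col5a1. One of these 7 was col5a3b, which had 0 reads in 5 of 5 vehicle livers of 9 weeks, so no fold is given. Brain and liver differed at 7 of 8 loci, a count near the background, as 74.8% of all loci differed in either direction. Brain was higher for col2a1a Nfu_g_1_021016 by 5.35 ± 0.44 and for col11a1b by 2.63 ± 0.31, and lower for col1a1a by a log2 fold change of -2.06 ± 0.79. For col5a1 no difference between brain and liver passed, at 0.10 on the log2 scale. All these tissue values depend on the scaling: the fit's TMM factors were 1.55 to 1.65 in these brains, 0.882 to 1.05 in these skins and 0.517 to 0.657 in these livers. Deposited RPKM carries no such factor. For col2a1a Nfu_g_1_001498 the deposited level was 0.18 to 0.35 RPKM in brain and 0.04 to 0.12 RPKM in skin. By RPKM col5a1 was at 5.44 to 8.14 in brain and 1.08 to 5.09 in liver, without overlap, and with a gene length trend removed it was lower in brain, at -1.13 (adjusted p = 0.00658). Bulk samples cannot tell fewer cells of a type from less RNA per cell in any of these comparisons.

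The 2 col2a1a loci behaved differently. Nfu_g_1_021016 was read in skin, fin and brain at every age. Nfu_g_1_001498 had most of its reads in skin of 5-week fish, at 7.32 RPKM in JM100, 9.95 in JM102, 1.68 in JM103, 2.62 in JM94 and 0.69 in JM95, which is 269 to 2320 reads. In later untreated skins it had 1 to 18 reads, with 1 exception, JM83 at 27 weeks with 114 reads. Brain libraries of all 3 groups held 42 to 95 reads of it. Loci with the same symbol can share reads, so the division of reads between the pair is uncertain.

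Together the 8 loci took 13.5 ± 2.94% of all counted reads in 5-week skin (n = 5), and the share was 5.29 ± 1.44% at 12 weeks, 2.79 ± 1.60% at 20 weeks, 1.20 ± 1.07% at 27 weeks and 0.307 ± 0.141% at 39 weeks. The lowest 5-week skin stood at 8.61% and the highest 39-week skin at 0.456%. Type I chains made up nearly all of this share, 13.2 ± 2.87% of reads at 5 weeks and 0.276 ± 0.133% at 39 weeks. The other 5 loci took 0.363 ± 0.0766% and 0.0306 ± 0.0086%. In the treatment arm the share of the 8 loci in skin was 15.1 ± 1.47% at 9 weeks, 2.45 ± 2.11% at 27 weeks in DMSO and 2.98 ± 2.33% with rotenone. In fins it was 2.13 ± 0.631% at 10 weeks and 1.00 ± 0.508% at 20 weeks (n = 45 each). Liver group means lay between 0.0110% and 0.0505%, and brain means between 0.0256% and 0.0687%. Single fish made the highest of each. Liver of JM100 at 5 weeks stood at 0.141%, against 0.0183 to 0.0452% in the rest of its group. Rotenone brain of MR28 stood at 0.226%, against 0.0204 to 0.0354%.

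**Figure D2:**
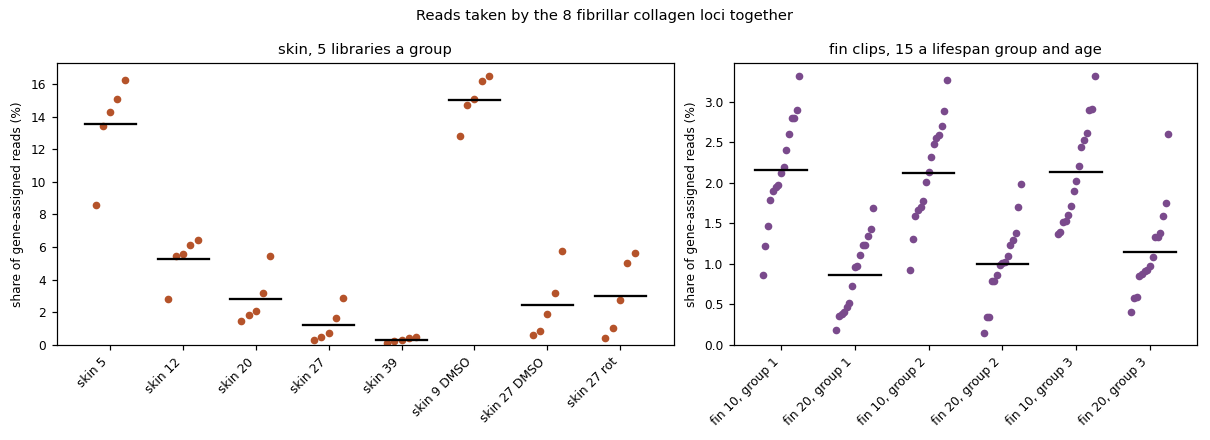
Percent of gene-assigned reads that fell in the 8 collagen loci, per library, in skin by age in weeks and treatment (left) and in fin clips by age and lifespan group (right, with its own axis); points are libraries and bars are means. In untreated skin the mean goes from 13.5% at 5 weeks to 0.307% at 39 weeks.

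In untreated skin the type I chains fell with age. The level of col1a1a at 5 weeks was 5606 RPKM in JM100, 6368 in JM102, 6001 in JM103, 5282 in JM94 and 3418 in JM95. At 12 weeks it was 2640 in JM104, 2540 in JM109, 2360 in JM110, 1150 in JM112 and 2284 in JM116, all below the lowest 5-week skin. At 20 weeks it was 547 in JM79, 873 in JM84, 691 in JM87, 2216 in JM88 and 1177 in JM91, a range that overlapped the 12-week skins. At 27 weeks the col1a1a level was 77.9 in JM55, 234.5 in JM62, 1109 in JM72, 662 in JM74 and 170 in JM83, the widest relative spread of the 5 ages. At 39 weeks it was 71.9 in JM1, 81.8 in JM13, 36.0 in JM15, 162 in JM18 and 152 in JM24, and the highest of these lay far below the lowest 5-week value. In rank among all loci by RPKM, col1a1a went from a median of 9 at 5 weeks to 574 at 39 weeks, col1a1b from 6 to 433 and col1a2 from 13 to 420.

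The other type I chains had the same course. Mean col1a1b levels were 6448 ± 1319 RPKM at 5 weeks, 2546 ± 728 at 12 weeks, 1338 ± 774 at 20 weeks, 545 ± 505 at 27 weeks and 114 ± 56.2 at 39 weeks. Mean col1a2 levels were 4104 ± 981, 1454 ± 411, 811 ± 479, 367 ± 324 and 113.5 ± 48.8 RPKM at the same ages. No 39-week skin reached any 5-week skin in either chain.

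Among the minor chains, col5a1 fell less far than type I. Its level at 5 weeks was 263 RPKM in JM100, 250.4 in JM102, 213 in JM103, 217 in JM94 and 162 in JM95, and at 39 weeks 18.1 in JM1, 18.2 in JM13, 11.2 in JM15, 21.6 in JM18 and 22.9 in JM24. The means between were 100 ± 11.03 RPKM at 12 weeks, 61.3 ± 13.3 at 20 weeks and 38.8 ± 16.5 at 27 weeks. The 5-week and 39-week skins did not overlap. The col11a1b level was 155, 149, 123.2, 118 and 80.2 RPKM at 5 weeks and 11.3, 8.26, 7.64, 12.2 and 19.4 RPKM at 39 weeks, in the same order of fish, and again the groups stood apart. The col2a1a locus Nfu_g_1_021016 had 26.9 ± 9.11 RPKM at 5 weeks and 2.18 ± 0.877 at 39 weeks. For col5a3b the level was 3.22, 2.50, 1.58, 2.14 and 2.87 RPKM at 5 weeks and 0.01 to 0.05 RPKM, or 1 to 8 reads, at 39 weeks.

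All 8 loci were lower in 39-week than in 5-week skin by edgeR's quasi-likelihood test, against 28.9% of all loci, and the median log2 fold change was -5.16 for the members and -0.03 for all loci tested. The log2 fold change was -5.43 ± 0.62 (SE) for col1a1a (adjusted p = 2.72e-07), -5.53 ± 0.60 for col1a1b and -4.88 ± 0.54 for col1a2. It was -3.27 ± 0.26 for col5a1 (adjusted p = 5.43e-09), -3.08 ± 0.28 for col11a1b and -3.32 ± 0.32 for col2a1a Nfu_g_1_021016. The estimates for col5a3b, -6.75 ± 0.59, and for col2a1a Nfu_g_1_001498, -6.82 ± 0.93, rest on the few reads left at 39 weeks. Nfu_g_1_001498 had most of its reads in the 5-week skins, so its place among the 8 and in the median is no separate support.

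The fall was tested in steps, which share libraries with their neighbours. From 5 to 12 weeks 7 of 8 loci were lower (16.6% of all loci), with log2 fold changes of -1.41 ± 0.50 for col1a1b (adjusted p = 0.0360), -1.56 ± 0.47 for col1a2, -1.21 ± 0.24 for col5a1 and -1.40 ± 0.26 for col11a1b. Among the 7 was col2a1a Nfu_g_1_001498, whose reads lay mostly in the 5-week skins. The estimate for col1a1a was -1.35 ± 0.52 (adjusted p = 0.0528) and did not pass. DESeq2 called all 8 loci, and in either direction it called 6514 of all loci, against 5913 by edgeR. The call for col1a1b was lost when any of 8 libraries was left out, for example JM112 (adjusted p = 0.0849). Removing the trend that set the MC10 brain apart from the other 27-week vehicle brains left 5 calls, with col1a1b at -1.11 and col1a2 at -1.25 no longer passing. That trend came from a brain of the treatment arm, and whether these skins share it was not tested. From 12 to 20 weeks 0 of 8 passed by edgeR and 0 by DESeq2, with 1 member (col5a1) and 2330 loci at an unadjusted p under 0.05. Of all loci edgeR called 0.00528% and DESeq2 169. From 20 to 27 weeks 0 of 8 passed by either tool, with 5 members and 1429 loci at an unadjusted p under 0.05. Of all loci edgeR called 0% and DESeq2 36. The 5 were col1a1a, col1a1b, col1a2, col5a1 and col11a1b, with log2 estimates between -1.47 and -0.55.

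From 27 to 39 weeks 7 of 8 loci were lower (20.7% of all loci), with -1.82 ± 0.53 for col1a1a, -1.93 ± 0.51 for col1a1b, -1.37 ± 0.47 for col1a2, -0.75 ± 0.24 for col5a1 and -0.78 ± 0.26 for col11a1b on the log2 scale. Fitting only those groups left 3 of the 7 calls, and leaving out JM72, the 27-week skin with the highest col1a1a level, left 4. With the MC10 brain trend fitted to these skins and removed, 6 passed, and col5a1 stood at -0.37 (adjusted p = 0.319). From 12 to 39 weeks, a span without the 5-week fish, 7 of 8 loci were lower (25.1% of all loci), with -4.08 ± 0.58 for col1a1a and -2.06 for col5a1. The exception was col2a1a Nfu_g_1_001498, at 0.57 (adjusted p = 0.635).

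**Figure D3:**
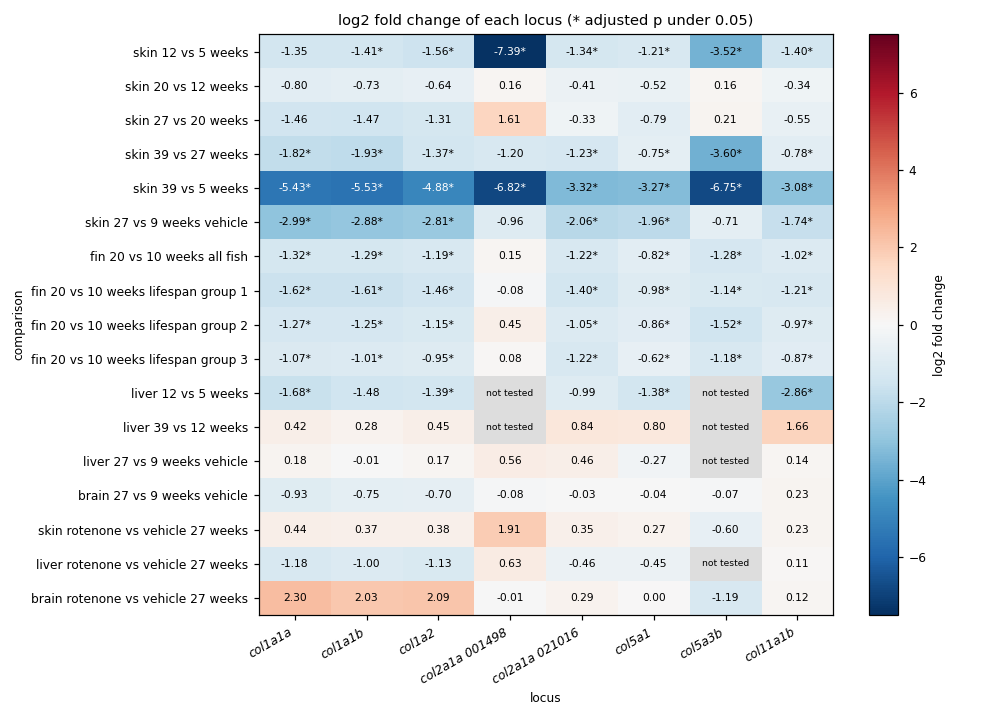
Log2 fold changes of each collagen locus (columns) in each comparison (rows), from edgeR's quasi-likelihood fits; blue is lower, red is higher, a star marks an adjusted p under 0.05 and grey cells were not tested. All 8 loci are lower in skin at 39 against 5 weeks, and 7 of 8 in fins at 20 against 10 weeks.

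Markers of other cell types moved in the same skins. Summed cartilage marker levels ran from 7522 to 14126 CPM at 5 weeks (median 12839) and from 50.0 to 442 at 39 weeks (median 137), and 14 of 18 tested cartilage loci were lower. Of 14 bone loci 4 were higher and 5 lower. Muscle marker sums ran from 35920 to 52700 at 5 weeks and from 24867 to 65908 at 39 weeks, with ryr1a, myhz2 and ckma at 0 at 39 weeks. Keratinocyte sums overlapped, at 16423 to 25259 against 17042 to 31464. Fibroblast marker sums ran from 1136 to 1248 at 5 weeks and from 618 to 848 at 39 weeks, with thy1 at 0 at 39 weeks, and of 16 loci 3 were higher and 4 lower. Of 19 cell cycle loci 13 were lower and 1 higher. Of all loci 28.9% were lower and 25.6% higher, so the bone and fibroblast counts lie near the background. The part of these markers in the collagen result was not tested.

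The vehicle fish gave an age comparison in other animals. In skin the col1a1a level at 9 weeks was 6523 RPKM in MC1, 6056 in MC2, 5835 in MC3, 5055 in MC4 and 6383 in MC5. At 27 weeks it was 2099 in MC10, 180.0 in MC6, 1206 in MC7, 292 in MC8 and 705 in MC9. All 27-week skins lay below all 9-week skins, with MC10 the highest and MC6 the lowest. The col5a1 level was 230 ± 12.8 RPKM at 9 weeks and 70.2 ± 35.3 at 27 weeks, again with no overlap.

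Of the 8 loci 6 were lower at 27 than at 9 weeks (6.76% of all loci), with a member median of -2.01 on the log2 scale against 0.05 for all loci. The log2 fold changes were -2.99 ± 0.76 for col1a1a (adjusted p = 0.0243), -2.88 ± 0.74 for col1a1b, -2.81 ± 0.70 for col1a2, -1.96 ± 0.43 for col5a1, -1.74 ± 0.34 for col11a1b and -2.06 ± 0.46 for col2a1a Nfu_g_1_021016. Estimates for col5a3b, -0.71, and for col2a1a Nfu_g_1_001498, -0.96, did not pass. Leaving out any of MC3, MC5, MC6, MC8 and MC9 left 3 calls, those of col5a1, col11a1b and col2a1a Nfu_g_1_021016. The numbers of all loci called in those leave-out fits are not given here. Without MC7 and MR30 the same 6 loci passed, with col1a1a at -3.06, while the loci called in all went from 2019 to 3577. Summed cartilage markers in these skins were 12454 to 19890 CPM at 9 weeks and 259 to 7785 at 27 weeks, and their part was not tested.

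No collagen locus passed the threshold with rotenone in skin. The col1a1a level of rotenone-treated 27-week skin was 128 RPKM in MR26, 2215 in MR27, 998 in MR28, 1912 in MR29 and 387 in MR30, a range that covered all 5 vehicle skins. By edgeR 0 of 8 loci passed against the 27-week vehicle skins, which are also the older group of the age comparison, while 12.3% of all loci did. For col1a1a the log2 difference was 0.44 ± 0.70, with a 95% interval of -0.93 to 1.82, so neither a rise nor a fall can be told from no change at this spread. Without MC7 and MR30 it was 0.78 (adjusted p = 0.498), again with 0 of 8 passing, and the loci called in all went from 2365 to 3764. One locus, col2a1a Nfu_g_1_001498, had an unadjusted p under 0.05, with a log2 difference of 1.91 ± 0.71 (adjusted p = 0.0917). DESeq2 called this 1 locus. It rests on MR28, whose skin had 144 reads and a log2 CPM of 2.50 against -0.59 to -0.18 in the other 4, and without that fish the difference was 0.67 (adjusted p = 0.4663). The muscle marker sum of the MR28 skin was 41218 CPM against 20913 to 22872 in the other 4.

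In fin clips of the same fish 10 weeks apart, 7 of the 8 loci fell. The 20-week clip was also the second clip of each fish, so age and the earlier clip cannot be told apart. The col1a1a level at 10 weeks had a lowest value of 325, a median of 795 and a highest value of 1296 RPKM over 45 fins, and at 20 weeks 41.0, 363 and 997. The ranges overlapped, and 41 of 45 fish were lower at the second clip. The median col5a1 level was 82.9 RPKM at 10 weeks (32.0 to 131.5) and 49.6 at 20 weeks (10.1 to 87.5), lower in 42 of 45 fish. For col5a3b, whose 10-week fins overlapped the 5-week skins (1.58 to 3.22 RPKM) but had the higher median, the median level was 6.14 RPKM (1.21 to 14.7) and then 2.33 (0.14 to 7.31), lower in 39 fish.

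With fish as a block, 7 of 8 loci were lower at 20 weeks by edgeR, against 12.7% of all loci, and the median log2 fold change was -1.204 for the members and 0.01 for all loci. It was -1.32 ± 0.15 for col1a1a (adjusted p = 6.56e-09), -1.29 ± 0.16 for col1a1b, -1.19 ± 0.14 for col1a2, -0.82 ± 0.08 for col5a1 and -1.02 ± 0.10 for col11a1b. For col2a1a Nfu_g_1_021016 it was -1.22 ± 0.12 and for col5a3b -1.28 ± 0.19. Nfu_g_1_001498 did not pass, at 0.15 ± 0.15 with 3 to 33 reads per library. The same 7 loci passed within each batch, with a larger estimate in the second: for col1a1a -1.03 in the first and -1.98 in the second, and for col5a1 -0.64 and -1.21. The difference between batches was not tested. Median keratinocyte marker sums were 158486 CPM at 10 weeks and 159460 at 20 weeks, while the cartilage sum ran from 1146 to 6907 and then from 267 to 3649, and its part was not tested.

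**Figure D4:**
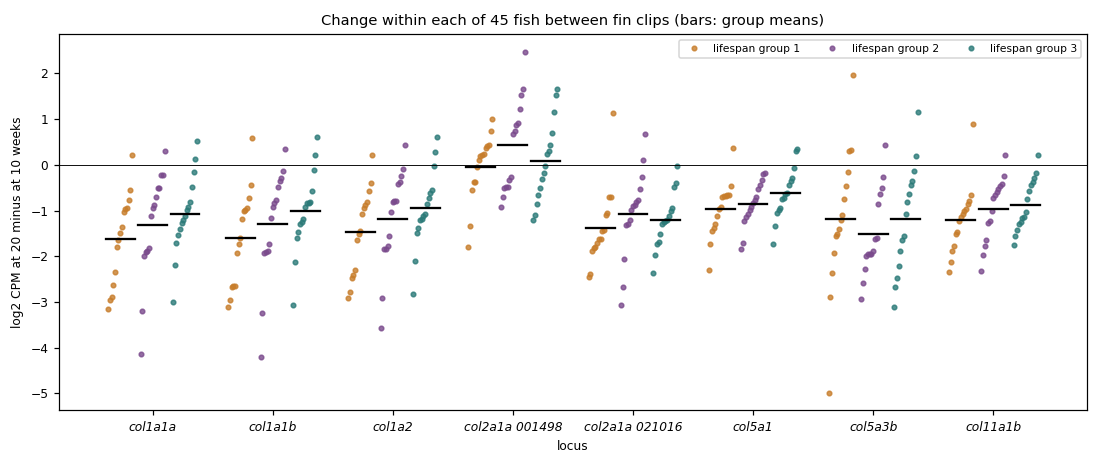
Change in log2 CPM from 10 to 20 weeks in the fin of each of 45 fish (vertical axis), for each collagen locus, coloured by lifespan group; points are fish and bars are group means. For col1a1a 41 of 45 fish lie below 0, and the 3 lifespan groups overlap.

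Each lifespan group was also tested alone. In group 1, the fish that died youngest, 7 of 8 loci were lower at 20 weeks (3.5% of all loci), in group 2 likewise 7 (4.08%) and in group 3 likewise 7 (1.68%). Within the second batch alone, 5 fish a group, 1 member passed in group 2, where 14 of all loci did. In group 3 of that batch 0 members passed, where 1 of all loci did. Within the first batch alone 2 members passed in group 3, a count given without the number of all loci called in that fit. For col1a1a the log2 fold changes were -1.62 ± 0.27, -1.27 ± 0.27 and -1.07 ± 0.26 in groups 1, 2 and 3. The difference of these changes was tested directly: 0 of 8 loci passed for group 2 against 1, with 0% of all loci passing, and 0 of 8 for group 3 against 1, also 0% of all loci. For col1a1a the difference between group 3 and group 1 was 0.55 ± 0.37 (adjusted p = 0.995). Neither test had a member at an unadjusted p under 0.05, though 272 and 320 of all loci were, and DESeq2 called 0 of 8 in both.

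At a single age no collagen locus passed between the lifespan groups either. At 10 weeks 0 of 8 passed for group 2 against 1 (0% of all loci) and 0 of 8 for group 3 against 1 (0%), with 1476 and 630 loci and 0 members at an unadjusted p under 0.05. At 20 weeks 0 of 8 passed for group 2 against 1 (0%) and for group 3 against 1 (0%), with 470 and 674 loci at an unadjusted p under 0.05. One member was among the 674, col5a1, higher in group 3 by 0.37 ± 0.16 on the log2 scale (adjusted p = 1). DESeq2 called 0 of 8 in all 4 of these comparisons.

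Liver had little fibrillar collagen RNA, and 6 of 8 loci passed the count filter there in untreated fish; col5a3b and col2a1a Nfu_g_1_001498 did not. The col1a1a level at 5 weeks was 51.3 RPKM in JM100, 6.86 in JM101, 9.17 in JM103, 5.82 in JM97 and 16.9 in JM98. At 12 weeks it was 3.12 in JM104, 4.69 in JM105, 2.40 in JM106, 2.60 in JM107 and 4.25 in JM115, all below the 5-week livers. The mean level was 7.94 ± 6.92 RPKM at 20 weeks, 6.95 ± 6.68 at 27 weeks and 7.19 ± 3.57 at 39 weeks, so the later means lay between. Single livers spread wider. JM79 at 20 weeks, at 2.12, and JM69 at 27 weeks, at 1.54, were below all 12-week livers, while JM61 at 27 weeks, at 18.5, was inside the 5-week range. Liver of JM100 also had the highest keratinocyte marker sum, 6375 CPM against 1002 to 1383 in the other 4.

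From 5 to 12 weeks 4 of 6 loci were lower in liver (8.01% of all loci), with log2 fold changes of -1.68 ± 0.55 for col1a1a (adjusted p = 0.044), -1.39 ± 0.46 for col1a2, -1.38 ± 0.40 for col5a1 and -2.86 ± 0.84 for col11a1b. Without JM100 only col11a1b still passed, and without JM104, JM106 or JM107 none did, with the calls over all loci in these fits not given here. From 12 to 39 weeks 0 of 6 passed by edgeR or DESeq2, with 3026 loci and 0 members at an unadjusted p under 0.05. Of all loci edgeR called 0% and DESeq2 508. From 5 to 39 weeks 0 of 6 passed by either tool, against 12% of all loci, with 2 members at an unadjusted p under 0.05, col1a1a at -1.27 ± 0.54 and col1a1b at -1.201.

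In livers of the treatment arm 7 loci could be tested. The col1a1a level was 11.3 ± 6.86 RPKM at 9 weeks, 15.9 ± 18.5 in 27-week DMSO livers and 6.35 ± 3.95 with rotenone, and the second mean rests on MC7 at 48.4 RPKM. From 9 to 27 weeks 0 of 7 passed by edgeR or DESeq2, against 12.4% of all loci in either direction by edgeR, with 0 members and 4774 loci at an unadjusted p under 0.05. With rotenone 0 of 7 passed by either tool, against 26% of all loci, with 1 member and 6807 loci at an unadjusted p under 0.05. The type I estimates lay between -1.18 and -1.001 on the log2 scale, with adjusted p between 0.109 and 0.141.

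In brain the type I levels were low in every group, with 1 exception. The col1a1a level at 9 weeks was 2.28 RPKM in MC1, 8.87 in MC2, 11.3 in MC3, 6.45 in MC4 and 8.53 in MC5, and at 27 weeks 5.26 in MC10, 2.61 in MC6, 5.44 in MC7, 4.10 in MC8 and 1.67 in MC9. With rotenone it was 3.10 in MR26, 6.59 in MR27, 78.9 in MR28, 1.30 in MR29 and 7.85 in MR30, with MR28 far above all other brains and MR29 just below them. The same fish had 111 RPKM of col1a1b and 65.2 of col1a2. Its summed cartilage markers were 851 CPM against 411 to 525 in the other 4 and its keratinocyte markers 1539 against 848 to 929. Its neuron and glia markers, at 9857, lay inside the 8596 to 10752 of the others. The part of these markers was not tested.

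From 9 to 27 weeks 0 of 8 loci passed in brain by edgeR or DESeq2, with 0 members and 3418 loci at an unadjusted p under 0.05. EdgeR called 2.09% of all loci, 420 in number, against 1319 by DESeq2 and 7 when only the compared groups were fitted. With rotenone 0 of 8 passed by edgeR, against 8.69% of all loci, with 5 members and 4982 loci at an unadjusted p under 0.05. The log2 differences were 2.30 ± 0.88 for col1a1a, 2.03 ± 0.74 for col1a1b and 2.09 ± 0.81 for col1a2, and 0.26, 0.29 and 0.11 without MR28. The cartilage chain col2a1a Nfu_g_1_021016 had 5.37 to 6.25 RPKM in 4 vehicle brains and 3.80 in MC10, and 7.43, 6.73, 6.21, 6.40 and 6.18 RPKM in the rotenone brains. Its difference of 0.29 ± 0.09 had an adjusted p of 0.0568 by edgeR, and it was the 1 locus DESeq2 called. Without MC10 it passed in edgeR at 0.20, as did col5a3b at -1.46. For col5a3b the difference was -1.19 ± 0.44 (adjusted p = 0.108), with 13 to 25 reads in the rotenone brains and 6 to 61 in the vehicle brains. For col5a1 it was 0.00 ± 0.15.

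Whether the age changes differed between tissues was tested as the difference of the changes. In untreated fish the change from 5 to 39 weeks was more negative in skin than in liver for 7 of 8 loci (13% of all loci), with differences of -4.11 ± 0.82 for col1a1a, -4.27 ± 0.79 for col1a1b, -3.90 ± 0.71 for col1a2 and -2.64 ± 0.49 for col5a1 on the log2 scale. For col11a1b it was -1.85 ± 0.82 (adjusted p = 0.102) and did not pass. The col5a3b value among the 7, -3.89 ± 1.43, rests on few reads in both older skin and liver. The same holds for col2a1a Nfu_g_1_001498, at -7.64 ± 1.13. Neither locus passed the count filter in untreated liver alone, so both values set a fall in skin against a liver level near the floor. Some of these fish gave both tissues, and this fit had no fish block.

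In vehicle fish from 9 to 27 weeks the change was more negative in skin than in liver for 3 of 8 loci (4.97% of all loci), col11a1b at -1.88 ± 0.43, col5a1 at -1.72 ± 0.55 and col2a1a Nfu_g_1_021016 at -2.50 ± 0.56. Differences for the type I chains lay between -3.19 and -2.90 with adjusted p of 0.0604 to 0.066. With fish as a replicate block, since each fish gave all 3 tissues, 6 loci passed, the type I chains among them, with -3.28 for col1a1a (adjusted p = 0.0367). With that block the loci called in all, in either direction, went from 1616 to 1044. Against brain 1 of 8 passed (0.263% of all loci), col11a1b at -1.95 ± 0.37, and with the replicate block 2 passed, the other being col2a1a Nfu_g_1_021016 at -2.10 (adjusted p = 0.0492). Leaving out MC3 left 0 of these without the block. For the rotenone changes 0 of 8 loci passed between skin and brain (0.333% of all loci did by edgeR) and 0 of 8 between skin and liver (3.22%), by edgeR or DESeq2, with 1 member at an unadjusted p under 0.05 in each and 2217 and 3645 of all loci.

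The make-up of the chains was followed as ratios of RPKM within a library, each tested by an exact two-sided permutation test over samples with adjustment over 18 ratio comparisons. With 5 against 5 libraries the smallest p this test can give is 0.00794. The ratio of both alpha1-type chains of type I to col1a2 was 2.90 ± 0.139 in 5-week skin and 1.83 ± 0.214 in 39-week skin, a log2 difference of -0.66 at that smallest p (adjusted p = 0.0204), with no overlap. The course between was not a steady fall: the ratio was 3.26 ± 0.0623 at 12 weeks, above all 5-week skins, then 3.00 ± 0.196 at 20 weeks and 2.52 ± 0.412 at 27 weeks, and these steps were not tested. A collagen I molecule is classically made of alpha1-type and alpha2 chains in unequal numbers, with alpha1-type in excess. In vehicle skin the ratio was 3.14 ± 0.0315 at 9 weeks and 2.77 ± 0.216 at 27 weeks (log2 difference -0.19, exact permutation adjusted p = 0.0204).

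In fins, where signs were flipped within fish 100000 times, the alpha1 to alpha2 ratio was 2.68 ± 0.144 at 10 weeks and 2.47 ± 0.213 at 20 weeks. It was lower in 40 of 45 fish, with a log2 change of -0.12 at a permutation p of 1e-05, the smallest these flips can give. In liver it was 2.62 at 5 weeks and 2.28 at 39 weeks (log2 difference -0.22, exact permutation p = 0.0476, adjusted p = 0.0952), and no call is made. In brain it was 2.88 in 27-week vehicle fish and 3.19 with rotenone (log2 difference 0.15, exact permutation p = 0.0397, adjusted p = 0.0893), which did not pass either.

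The ratio of col5a1 to the sum of type I chains was higher at the older age in skin and at the second clip in fin. It was 0.0141 ± 0.00172 in 5-week skin and 0.0633 ± 0.0193 in 39-week skin, a log2 difference of 2.12 (exact permutation p = 0.00794, adjusted p = 0.0204). In vehicle skin it was 0.0130 at 9 weeks and 0.0364 at 27 weeks, a log2 difference of 1.31 with the same p-values. In fins it was 0.0366 at 10 weeks and 0.0527 at 20 weeks, higher in 36 of 45 fish (log2 change 0.47, permutation p = 1e-05). In skin with rotenone the log2 difference was -0.17 (exact permutation p = 0.714). In liver the ratio was 0.0532 at 5 weeks and 0.0814 at 39 weeks (log2 difference 0.53, exact permutation p = 0.127, adjusted p = 0.208), and it was 0.0554 at 12 weeks, where type I levels were lowest. Brain had the highest mean ratios, 0.303 ± 0.136 at 9 weeks, 0.539 ± 0.292 in 27-week vehicle fish and 0.352 ± 0.258 with rotenone. The age step in brain was not tested. With rotenone the log2 difference was -1.01 (exact permutation p = 0.310, adjusted p = 0.464), and MR28 was the lowest rotenone brain at 0.0315.

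The balance of the alpha1-type chains, col1a1b to col1a1a, passed in vehicle skin alone among its 6 comparisons. In vehicle skin it was 1.27 ± 0.0134 at 9 weeks and 1.36 ± 0.0579 at 27 weeks (log2 difference 0.09, exact permutation p = 0.00794, adjusted p = 0.0204). In untreated skin the log2 difference from 5 to 39 weeks was -0.07 (exact permutation p = 0.421) and in fins it was 0.03 (permutation p = 0.0998). Between those ages the untreated means were 1.16 at 12 weeks, 1.23 at 20 weeks and 1.27 at 27 weeks, steps that were not tested.

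**Figure D5:**
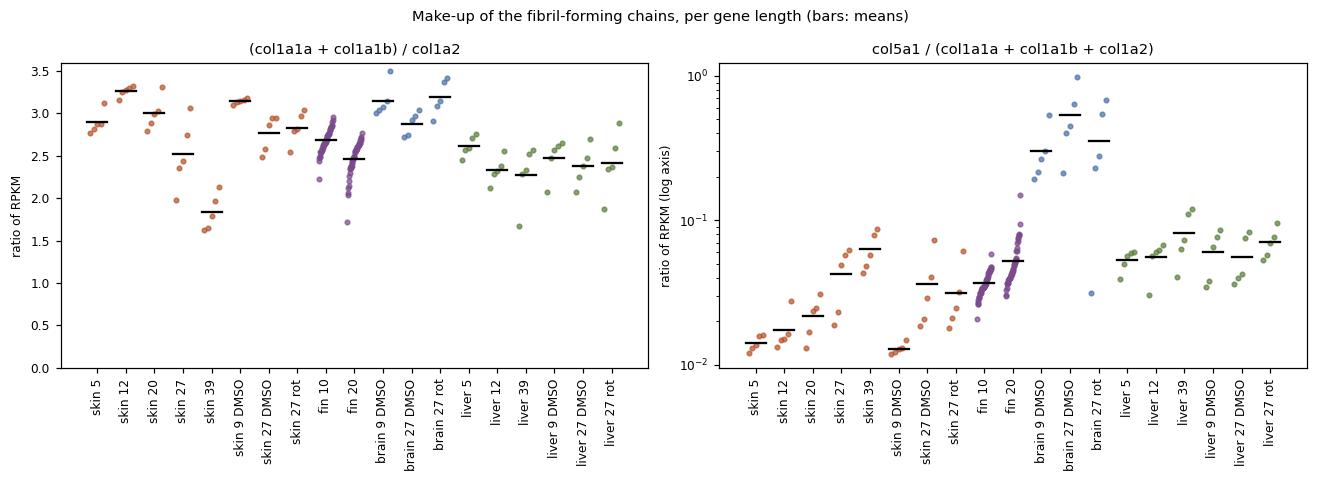
Ratios of RPKM within each library, both alpha1-type chains to col1a2 (left) and col5a1 to the sum of type I chains (right, log axis), by tissue, age in weeks and treatment; points are libraries and bars are means. The left ratio of the 39-week skins, mean 1.83, lies below that of all 5-week skins, mean 2.90, and the right ratio lies above.

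Other genes of the collagen pathway were counted in the same contrasts. The genes named were picked for a large change in skin at 39 against 5 weeks, so their values there are extreme by choice. The lists, too, were chosen with earlier results of these data known. In skin at 39 against 5 weeks all 8 tested loci of other fibrillar collagen genes were lower (median log2 fold change -3.46), with -4.72 ± 0.59 for col5a2b, the alpha2(V) chain, -3.95 ± 0.39 for col11a1a and -3.68 ± 0.32 for col27a1a. Of 26 loci for hydroxylation and folding of the chains 21 were lower and 0 higher. The prolyl isomerase fkbp14 stood at -3.81 ± 0.47 and the prolyl 3-hydroxylase lepre1 at -3.58 ± 0.28. Of 26 loci for export, cleavage and cross-linking 21 were lower and 1 higher, with the lysyl oxidase-like enzyme loxl2b at -5.31 ± 0.49 and sec24d, a coat protein of the vesicles that carry procollagen, at -4.28 ± 0.68.

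Of 24 loci of fibril surface proteins 21 were lower and 0 higher, with thbs4b at -4.71 ± 0.54 and tnc, tenascin C, at -4.69 ± 0.62. Of 25 loci for collagen receptors and TGF-beta signalling 14 were lower and 4 higher, with the collagen-binding integrin subunit itga11a at -3.08 ± 0.46. Of 11 loci of collagenases and inhibitors 3 were lower and 3 higher: mmp14a, a membrane-bound collagenase, stood at -3.22 ± 0.43 and mmp13a, a secreted collagenase, at 3.01 ± 0.74 (adjusted p = 0.00152). For comparison, 28.9% of all loci were lower and 25.6% higher in this contrast, so the collagenase and inhibitor counts lie near the background.

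In fins the same lists were counted at 20 against 10 weeks. Of the other fibrillar genes 6 of 8 were lower and 0 higher, of hydroxylation and folding 19 of 26 and 0, of export, cleavage and cross-linking 12 of 26 and 1, and of fibril surface proteins 15 of 21 and 2. There col5a2b stood at -0.91 ± 0.12, fkbp14 at -1.17 ± 0.17 and tnc at -1.07 ± 0.21, while lox Nfu_g_1_017275, which was at -4.40 ± 0.49 in skin, was at -0.21 ± 0.10 and did not pass. In vehicle skin from 9 to 27 weeks 7 of 8 other fibrillar loci and 19 of 26 folding loci were lower, and 0 of either higher. With rotenone in skin 6 of 26 folding loci were higher and 2 lower. Of all loci, 12.7% were lower and 11.3% higher in fins, 6.76% lower and 3.71% higher in vehicle skin, and 5.19% lower and 7.08% higher with rotenone in skin.

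The genes most like the members were found by Pearson's r of log2 CPM, described over the 25 untreated skins, which share the age trend, and over the 45 fins of 10 weeks, which share 1 age. Over skins sparc, a collagen-binding secreted protein, was among the nearest 5 genes of 4 member loci (r 0.964 to 0.989). COL5A2 (1 of 2) was so for 5 loci (0.958 to 0.989), col16a1 for 4 (0.977 to 0.984) and col6a1 for 3 (0.978 to 0.987). Over fins sparc was again among the nearest of 4 loci (0.751 to 0.886), as were col5a2b (0.754 to 0.943) and col10a1 Nfu_g_1_015191 (0.823 to 0.907).

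Among the members the type I chains ran together in both sets, with r of 0.994 to 0.998 over skins and 0.982 to 0.987 over fins. With col1a1a, col5a1 had r of 0.979 over skins and 0.764 over fins, col11a1b 0.929 and 0.842, and col2a1a Nfu_g_1_021016 0.920 and 0.618. For col5a3b it was 0.774 over skins and 0.166 over fins. Library scaling is shared by all genes of a library, and no test is attached to these values.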

How the data were processed

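RNA of 185 libraries was extracted with QIAzol and prepared with Illumina's TruSeq kit, per the labels' protocols. The submitters' processing notes name CASAVA 1.8.0 and 1.8.2, bcl2fastq 1.8.4, TopHat2 2.0.6 and featureCounts 1.4.3-p1; for the genome build, the annotation and the strand setting nothing is stated. Raw counts per locus and RPKM were deposited by the authors, and symbols came from the file headers' zebrafish column. Depth was 14970721 to 54947376 counts. Counts were tested with edgeR 4.0.16 (TMM scaling, filterByExpr, robust quasi-likelihood F test) with Benjamini-Hochberg adjustment over all loci tested and a threshold of 0.05. Standard errors are the log2 fold change over the square root of F. DESeq2 1.42.0, other scalings and filters, a gene length trend, single batches, a fish block and leaving out libraries were alternatives. The fits were tested on simulated counts with known changes. Same-numbered tissues and both clips of a fin come from 1 fish, by fish code; the median correlation of their deviations was 0.0958 and 0.0924. Genes named from the pathway lists were, per list, up to 3 passing loci with the largest change in skin at 39 against 5 weeks. A mean log2 CPM of at least 2 was required of them. Nearest genes were named where shared by at least 3 member loci over skins or 4 over fins. Members and lists were chosen with earlier results of these data known.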

Additional observations from a re-analysis of the deposited data

Results flagged for a closer look

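Single libraries that stood apart from the other 4 of their group were looked for in log2 CPM over 139 groups of 5, and 11 were found. Chance gives about 1 in 20 groups, so much of this number could arise by chance. The 11 are not independent, as JM112 counts once for each of 3 type I chains. In 12-week skin JM112 was low in all 3 type I chains, at 13.19 for col1a1a (others 14.29 to 14.58), 12.90 for col1a1b (13.97 to 14.38) and 12.52 for col1a2 (13.62 to 13.94). Its muscle marker sum was 43484 CPM (others 26766 to 42132) and its macrophage sum 849 (433 to 648). In rotenone brain MR28 had 9.54 for col1a1b (5.06 to 6.35), and in rotenone skin the same fish had 2.50 for col2a1a Nfu_g_1_001498 (-0.59 to -0.18). That locus also stood at 1.85 in 27-week skin of JM83 (-2.24 to -1.85).

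For col2a1a Nfu_g_1_021016, MC1 was low in 9-week brain at 5.81 (5.91 to 5.94), JM85 was high in 20-week liver at 1.90 (-0.64 to -0.11) and MR26 was low in rotenone liver at -1.97 (-0.73 to -0.32). Liver of JM85 had a muscle marker sum of 1357 (others 50.1 to 94.5). Liver of JM15 at 39 weeks had 2.27 for col11a1b (-0.96 to -0.13) and a muscle sum of 3169 (57.0 to 113). In 9-week brain MC2 was low in col5a3b at -0.61 (0.78 to 1.04). The part of the markers in these values was not tested.

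Age changes that differed between tissues by a test of the difference were, against brain in vehicle fish, -1.95 for col11a1b. Against liver in vehicle fish they were -1.88 for col11a1b, -1.72 for col5a1 and -2.50 for col2a1a Nfu_g_1_021016. Against liver in untreated fish they were -4.11 for col1a1a, -4.27 for col1a1b, -3.90 for col1a2, -2.64 for col5a1, -3.89 for col5a3b, -3.10 for col2a1a Nfu_g_1_021016 and -7.64 for col2a1a Nfu_g_1_001498. The last rests on the 5-week skins, the 1 group where that locus had more than 144 reads in any library.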

How the results depend on the processing

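The count of 8 lower loci in skin at 39 against 5 weeks stood under every alternative run and without any 1 library. No called collagen value changed direction; the median of all loci there, -0.03, was 0.08 without the gene length trend and 0.02 by DESeq2. Removing a gene length trend left 4 of the 7 calls in skin at 39 against 27 weeks, and fitting only the compared groups left 3. For rotenone, DESeq2 called 1 locus in brain and 1 in skin, and removing the length trend called 1 in brain. In fins, the second batch alone gave 1 call in lifespan group 2 and 0 in group 3, where the first batch alone gave 2. For the age change of skin against brain DESeq2 gave 3, the fit of only the compared groups 3 and the replicate block of paired tissues 2; against liver DESeq2 gave 6 and the replicate block 6. Differences of medians in place of means were 0.0595 for col1a1b to col1a1a in vehicle skin, -0.689 and -0.131 for alpha1 to alpha2 in untreated and vehicle skin, and 2.06 and 1.18 for type V to type I there. With medians, none of these 5 skin differences kept an adjusted permutation p under 0.05. The replicate block moved no other count of collagen loci by over 1.5 times. Over all loci it moved the rotenone change of skin against brain from 72 to 16 and against liver from 697 to 350, and the age change against liver from 1616 to 1044; without the fish block of the fins, lifespan group 1 went from 1249 to 794 and group 2 from 1105 to 689.

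Leaving out 1 library at a time gave 0 to 3 calls for the age change of skin against brain, 2 to 6 against liver, 0 to 2 for rotenone in brain, 4 to 7 for brain against liver, 0 to 5 for liver at 12 against 5 weeks, 3 to 6 for vehicle skin and 4 to 7 for skin at 39 against 27 weeks. These are counts of collagen loci, and the calls over all loci in the same leave-out fits are not given. The ratios ranged from 0.0747 to 0.106 (col1a1b to col1a1a, vehicle skin), from 0.121 to 0.179, -0.263 to -0.109 and -0.211 to -0.150 (alpha1 to alpha2 in rotenone brain, liver and vehicle skin), and from 0.364 to 0.755 and 1.01 to 1.501 (type V to type I in liver and vehicle skin). Among the leave-out runs of the ratios, 12 lost an adjusted permutation p under 0.05 that the full set had, and 3 gained one. Removing the length trend moved the median of all loci by 0.115 in skin at 39 against 5 weeks. Over all loci DESeq2 called more than edgeR by over 1.5 times in age change of skin against brain (314 against 71), rotenone change of skin against brain (289 against 72) and liver (1189 against 697), brain with rotenone (2841 against 1750), liver from 9 to 27 weeks (3151 against 2072), vehicle skin (3239 against 2019) and fins of group 3 (913 against 509). Fitting only the compared groups gave 383 in place of 71 and 504 in place of 1616 for the age change of skin against brain and liver, 22 in place of 72 and 24 of 697 for the rotenone changes, 802 of 1750 for brain and 1348 of 2365 for skin with rotenone, 1279 of 2072 for liver from 9 to 27 weeks, 3673 in place of 2383 for liver at 12 weeks, 4517 of 7148 for skin at 39 against 27 weeks, 0 of 1 for skin at 20 weeks, and 750 of 1249 and 313 of 509 for fins of groups 1 and 3. Fitting and removing the MC10 brain trend left 2791 of 7148 in skin at 39 against 27 weeks and 4260 of 9340 against 12 weeks. For the rotenone change of skin against brain, removing the length trend gave 38, no filter 28 and RLE factors 39, and for brain from 9 to 27 weeks removing it gave 708. Fins of the second batch alone gave 2829 of 4512 in all fish and 381, 14 and 1 in groups 1, 2 and 3, and the first batch alone 816 and 600 in groups 1 and 2. The causes were not tested. Read number limits col5a3b and col2a1a Nfu_g_1_001498 in liver and old skin.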
